A study of Mus musculus with 2 samples.

Results

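The ERBB receptors and their neuregulin ligands were followed through the cell populations of the fetal mouse testis, to see which cells hold RNA for each receptor and which for each ligand. The genes were chosen by symbol, and comprise the 4 receptor genes *Egfr*, *Erbb2*, *Erbb3* and *Erbb4* and the 4 neuregulin genes *Nrg1*, *Nrg2*, *Nrg3* and *Nrg4*, which are 8 of the 32285 genes in the deposited table. All 8 were found by that rule. Male embryos at E14.5 (embryonic day, counted from conception) came from a cross of *Nr5a1-cre* and *Rosa-tdTomato* mice, so that all nuclei shared both alleles and the Cre was driven from *Nr5a1*, a gene of gonadal somatic cells. Testes were taken whole and frozen, and no source used here gives the number of embryos behind the sample. Nuclei were profiled by the 10x multiome assay, which reads RNA and open chromatin (ATAC, in which a transposase cuts accessible DNA) from the same nucleus, and there was 1 library per assay. No replicate stands behind any value, no test between animals was possible, and the exact 95% intervals given here cover counting error only.

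ERBB receptors are tyrosine kinases of the cell surface that pair upon binding a growth factor of the EGF type and then signal mainly through the MAP kinase and AKT pathways. EGFR binds EGF and its relatives, ERBB3 and ERBB4 bind neuregulins, and ERBB2 binds no known ligand and serves as the shared partner, while ERBB3 has little kinase activity and depends on its partner. Neuregulins are mostly made as membrane-bound precursors, are released by proteases, and are best known for signalling between neighbouring cell types in heart, nerve and mammary gland, and in the testis they have been linked to the growth of germ cells and Leydig cells.

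The RNA matrix held 9833 barcodes with 122049390 UMIs (counted RNA molecules), and the ATAC library held 58448458 unique fragments. After quality thresholds of the study and removal of 470 nuclei by doublet score, 7197 nuclei were kept, with a median of 7949 UMIs and 4484 fragments. Clusters of RNA and ATAC together gave 12 classes named from marker genes, and no member had a part in making or naming the classes through its RNA. The classes were progenitor-like (2536 nuclei, interstitial mesenchyme), germ-like (988), Sertoli-like (831), contractile-like (786), Leydig-like (754), surface epithelium-like (543), mesonephric mesenchyme-like (394), supporting-like (84), pericyte-like (67), endothelial-like (98), erythroid-like (47) and immune-like (69). For 11 of the 12 classes with 50 or more nuclei the levels were ranked. The summed level of its own markers was highest in the named class throughout, but the margin was small for progenitor-like nuclei (2080 CPM, UMIs per 1000000 UMIs of the class, against 1665 CPM in contractile-like nuclei) and for surface epithelium-like nuclei (1999.7 CPM against 1819 CPM in supporting-like nuclei). The supporting-like name is also weak, since 3 of its 4 markers were detected, its mean z score of 1.53 was close to the 1.38 of the next class, and in clusters from RNA alone the cluster led by *Pax8* scored highest for mesonephric tubule (2.28 against 1.60) and stayed unnamed. Of the kept nuclei, 6239 also lay below the automatic threshold of the doublet caller, and the share above it ran from 5.56% of progenitor-like to 38.8% of endothelial-like nuclei. Levels in the nuclei below this threshold are given beside many of those in all kept nuclei, and the part that doublets or free RNA had in any level was not tested. The members were among the genes given to the doublet caller, so these nuclei were not chosen independently of member levels. Blood nuclei (erythroid-like and immune-like together) were taken as the background beside shares of nuclei with a UMI. They were not low for every member. They held 299 CPM of *Erbb4*, against 13.9 CPM in progenitor-like nuclei, and 378 CPM of *Nrg1*, against 208 CPM in Sertoli-like nuclei. Below the automatic threshold blood nuclei held 24.4 and 67.2 CPM. Their thinned shares are not limited to nuclei below that threshold.

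Each receptor had its own distribution over the classes. *Erbb4* RNA was concentrated in Sertoli-like nuclei, *Egfr* RNA lay in the interstitial and mesenchymal classes, *Erbb2* RNA was low and spread over most classes, and *Erbb3* RNA was scarce and seen chiefly in Sertoli-like and germ-like nuclei. The neuregulins also differed. *Nrg1* was highest in the interstitial progenitor-like class, *Nrg2* in surface epithelium-like and *Nrg4* in germ-like nuclei, while *Nrg3* was low throughout. For levels between genes, CPM in the highest class was divided by the length of the gene, since a longer gene can give more UMIs from nuclear RNA. Per 100 kb of gene span this level was 376 CPM for *Erbb4*, 271 CPM for *Egfr*, 170 CPM for *Nrg1*, 129 CPM for *Nrg2*, 81.4 CPM for *Nrg4*, 71.8 CPM for *Erbb2*, 47.4 CPM for *Erbb3* and 4.20 CPM for *Nrg3*.

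**Figure D1:**
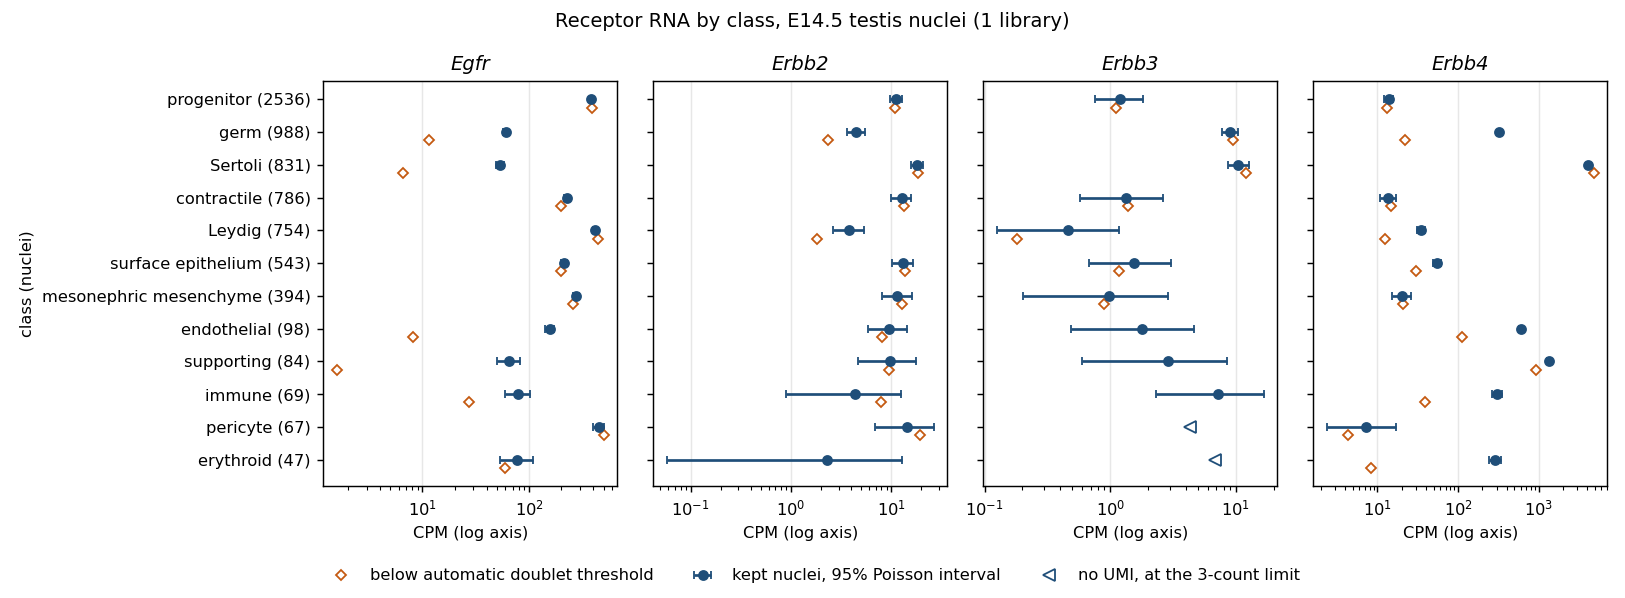
Level of the 4 receptor genes in each class, in UMIs per 1000000 UMIs (log axis). Circles are all kept nuclei with exact 95% Poisson intervals, open triangles mark classes with no UMI at the limit of 3 counts, and orange diamonds are the nuclei below the automatic doublet threshold (zeros left out). *Erbb4* stands at 4042 CPM in Sertoli-like nuclei, and its endothelial-like and germ-like levels drop from 596 to 113 CPM and from 325 to 22.2 CPM below the threshold.

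*Erbb4* (ENSMUSG00000062209, GRCm38 chr1:68032186-69108059, minus strand) encodes a neuregulin receptor with its own kinase activity. Sertoli cells enclose the germ cells in the testis cords, and in Sertoli-like nuclei *Erbb4* reached 4042 CPM (4003 to 4082). These nuclei held 79.0% of its UMIs, and the level was 25.1-fold that of all other nuclei together (24.5 to 25.6). Supporting-like nuclei, whose markers *Pax8* and *Aldh1a3* belong to the cells that join the cords to the rete, came next at 1346 CPM (1276 to 1418), 3.004-fold lower (2.85 to 3.17). After thinning each nucleus to 2000 UMIs, 95.05% of Sertoli-like and 44.0% of supporting-like nuclei kept at least 1 *Erbb4* UMI, against 7.14% of blood nuclei, and before thinning the shares were 98.1%, 59.5% and 12.1%.

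Below the first pair of classes, the *Erbb4* level was 596 CPM in endothelial-like, 325 CPM in germ-like, 306 CPM in immune-like and 288 CPM in erythroid-like nuclei. The other classes lay between 7.27 CPM in pericyte-like and 55.4 CPM in surface epithelium-like nuclei. Among nuclei below the automatic doublet threshold, the Sertoli-like level was 4862 CPM and the supporting-like level 918 CPM, while the endothelial-like, germ-like, immune-like and erythroid-like levels were 113, 22.2, 39.4 and 8.41 CPM, and the surface epithelium-like level was 30.1 CPM. The genes that lead the Sertoli-like cluster were set beside *Erbb4* in those classes. They were chosen in these data for the largest fold over all other nuclei, so low values elsewhere follow partly from that choice. The place of *Erbb4* among them therefore does not tell where its RNA in those classes came from. In endothelial-like nuclei the 10 genes that lead the Sertoli-like cluster stood at 10.99% to 21.7% of their Sertoli-like level and *Erbb4* at 14.8%. In germ-like nuclei they stood at 6.96% to 12.55% and *Erbb4* at 8.05%. In immune-like nuclei they ranged from 0.593% to 13.8% with *Erbb4* at 7.58%, and in erythroid-like nuclei from 0.907% to 10.6% with *Erbb4* at 7.12%, above 9 of the 10. A single nucleus held 123 of the 126 erythroid-like *Erbb4* UMIs, and another 124 of the 213 immune-like ones, so these levels do not describe their classes. In supporting-like nuclei *Erbb4* stood at 33.3% of its Sertoli-like level, above the median of 9.22% for the 10 genes, which ranged from 2.84% to 54.2%. Within Sertoli-like nuclei, the clusters cut at a finer resolution (0.6) held 4403 CPM in 612 nuclei and 3501 CPM in 219 nuclei.

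A promoter peak of *Erbb4*, chr1:69108200-69108963, lies 141 bp before the outermost start. The next peak, chr1:69105762-69106608 in an intron, has its centre 1.874 kb after the start and lies 132 bp from the start of *Gm16076*, annotated as a sense intronic transcript, with 13 UMIs. Both are shown because they are the open regions nearest the start of the receptor gene with the highest level. The first sequence is the promoter window of RefSeq (chr1:69108010-69108309), and the second the central 300 bases of the peak (chr1:69106036-69106335). Both are written 5′ to 3′ on the minus strand, mm10 (GRCm38), and capitals mark matches to the motifs searched.
Erbb4 promoter window: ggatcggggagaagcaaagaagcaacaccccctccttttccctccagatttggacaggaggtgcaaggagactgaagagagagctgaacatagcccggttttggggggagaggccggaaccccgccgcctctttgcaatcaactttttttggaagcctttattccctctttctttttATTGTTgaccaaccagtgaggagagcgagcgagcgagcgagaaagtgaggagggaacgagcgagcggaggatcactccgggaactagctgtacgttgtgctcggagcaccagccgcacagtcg
Erbb4 intronic peak centre: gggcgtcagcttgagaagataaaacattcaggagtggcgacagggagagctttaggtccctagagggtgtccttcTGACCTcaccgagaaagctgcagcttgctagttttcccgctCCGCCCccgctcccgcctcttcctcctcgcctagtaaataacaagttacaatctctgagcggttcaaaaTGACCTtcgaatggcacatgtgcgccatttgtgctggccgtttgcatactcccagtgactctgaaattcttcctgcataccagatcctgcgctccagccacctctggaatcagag
In all, 5 motifs were searched on both strands, namely the nuclear receptor half-site AGGTCA, its extended form CAAGGTCA (which contains the half-site), the SOX core AACAAT, the GC box GGGCGG and the AP-1 site TGACTCA. In the promoter window the capitals are 1 SOX core on the opposite strand (ATTGTT), which 10.7% of 32851 RefSeq promoter windows also hold. The intronic window holds 2 half-sites (TGACCT on the strand shown) and 1 GC box (CCGCCC), which 22.5% and 19.4% of the centres of 109183 peaks hold. A match of letters shows no binding.

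*Egfr* (ENSMUSG00000020122, chr11:16752203-16918158, plus strand) encodes the receptor for EGF and its relatives. Its highest level, 449 CPM (400 to 502), was in pericyte-like nuclei, which surround small vessels. Leydig-like nuclei, the androgen-producing cells, stood at 414 CPM (401 to 428) and progenitor-like nuclei at 382 CPM (373 to 391). Pericyte-like and Leydig-like levels did not differ beyond counting error (ratio 1.08, 0.962 to 1.22). Mesonephric mesenchyme-like (274 CPM), surface epithelium-like (213 CPM) and contractile-like nuclei (225 CPM) followed, the last pair with a ratio of 1.05 (0.971 to 1.14). Lowest were Sertoli-like nuclei at 53.2 CPM and germ-like nuclei at 60.4 CPM. Below the automatic doublet threshold these levels stayed between 198 and 503 CPM, whereas the Sertoli-like level was 6.53 CPM, the germ-like level 11.6 CPM and the endothelial-like level 8.19 CPM in place of 156 CPM. *Egfr* and *Erbb4* were thus highest in different compartments, the mesenchyme and the cords. After thinning, 59.7% of pericyte-like, 47.3% of Leydig-like and 43.6% of progenitor-like nuclei held an *Egfr* UMI, against 10.7% of blood nuclei. An antisense gene, *Egfros*, overlaps the body of *Egfr* and had 139 UMIs in the kept nuclei against 16473 for *Egfr*. No source used here says how strand entered the counting.

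*Erbb2* (ENSMUSG00000062312, chr11:98412470-98437716, plus strand), the partner receptor without a known ligand, had 736 UMIs. Levels were 18.1 CPM (15.6 to 21.0) in Sertoli-like nuclei, 14.53 CPM (6.97 to 26.7) in pericyte-like, 13.1 CPM in surface epithelium-like, 12.7 CPM in contractile-like, 11.5 CPM in mesonephric mesenchyme-like, 11.2 CPM in progenitor-like, 9.69 CPM in supporting-like and 9.47 CPM in endothelial-like nuclei. No class in that run differed from its neighbour beyond counting error, but classes further apart did. The Sertoli-like level was 2.20-fold that of all other nuclei together (1.85 to 2.60), and its interval lay above that of progenitor-like nuclei (9.68 to 12.8). Leydig-like nuclei were the lowest ranked class at 3.79 CPM (2.61 to 5.32), and germ-like nuclei stood at 4.46 CPM (3.60 to 5.47). Below the doublet threshold these levels were 1.82 and 2.35 CPM. Below it pericyte-like nuclei (19.5 CPM, 8.92 to 37.05) stood above Sertoli-like nuclei (18.4 CPM, 15.4 to 21.9), within counting error. After thinning, 5.97% of pericyte-like, 2.95% of contractile-like, 2.90% of Sertoli-like and 0.532% of Leydig-like nuclei held an *Erbb2* UMI. Of the blood nuclei 0 did, with an exact interval up to 3.24%. The contractile-like and Sertoli-like shares lie below that bound. The end of *Erbb2* overlaps that of *Mien1* on the other strand, which had 156 UMIs.

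*Erbb3* (ENSMUSG00000018166, chr10:128567523-128589652, minus strand), the receptor that depends on its partner's kinase, had 351 UMIs in all kept nuclei. Sertoli-like nuclei stood at 10.5 CPM (8.60 to 12.7) and germ-like nuclei at 9.02 CPM (7.78 to 10.4), a ratio of 1.16 that includes 1 (0.909 to 1.48). Below the doublet threshold both levels were kept, at 12.1 and 9.49 CPM. Immune-like nuclei followed at 7.19 CPM from 5 UMIs in 1.45% of nuclei, and held none below the threshold. In the remaining ranked classes the level was at most 2.91 CPM. Leydig-like nuclei held 4 UMIs (0.459 CPM), and pericyte-like nuclei held none (exact interval up to 5.36 CPM). Its thinned share was 1.93% in Sertoli-like and 1.83% in germ-like nuclei. Among blood nuclei it was 0 (exact interval up to 3.24%), so that these shares do not stand above that background at this depth.

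Receptor pairs can form only where both partners are made in one cell. Among Sertoli-like nuclei, 18.1% held UMIs of both *Erbb4* and *Erbb2* and 9.87% of both *Erbb4* and *Erbb3*, whereas 1.93% held both *Erbb2* and *Erbb3*. After thinning to 2000 UMIs the first share was 2.54% (1.58 to 3.85), beside a product of the single shares of 2.76%, within the interval of the joint share.

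*Nrg1* (ENSMUSG00000062991, chr8:31814551-32884029, minus strand) encodes the neuregulin best known from heart and nerve. Progenitor-like nuclei held 1816 CPM (1797 to 1836) and 56.9% of its UMIs, followed by contractile-like nuclei at 1218 CPM (1190 to 1246) and surface epithelium-like nuclei at 873 CPM (848 to 899). The ratio between the first and the next was 1.49 (1.45 to 1.53, counting error only). This order depended on the clusters, since the ratio was 0.941 with clusters remade at the automatic doublet threshold, 0.994 at resolution 0.6 and 2.77 under stricter minimums. Each of these 3 levels changed little below the doublet threshold, at 1860, 1198 and 832 CPM. Immune-like (460 CPM), endothelial-like (450 CPM), Leydig-like (429 CPM), pericyte-like (375 CPM), supporting-like (337 CPM) and mesonephric mesenchyme-like nuclei (297 CPM) formed a middle range, and germ-like (223 CPM) and Sertoli-like nuclei (208 CPM) were lowest. Much of that range was lower below the threshold, where immune-like nuclei stood at 59.1 CPM, endothelial-like at 26.6 CPM, mesonephric mesenchyme-like at 49.1 CPM, germ-like at 38.9 CPM and Sertoli-like at 24.8 CPM, while Leydig-like (231 CPM), pericyte-like (280 CPM) and supporting-like nuclei (166 CPM) kept more.

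The share of nuclei with an *Nrg1* UMI was also highest in the 3 leading classes, but its order differed from that of the levels in the middle range. After thinning it was 84.1% of progenitor-like, 65.1% of contractile-like, 54.8% of surface epithelium-like, 34.3% of pericyte-like, 31.2% of Leydig-like, 27.4% of supporting-like, 22.7% of endothelial-like and 18.2% of immune-like nuclei, against 14.3% of blood and 10.9% of Sertoli-like nuclei. Contractile-like nuclei held *Nrg1* at 67.0% of its progenitor-like level, while the 10 genes that lead the larger progenitor-like cluster stood there at 12.1% to 36.7% of theirs. Surface epithelium-like nuclei held 48.1%, where those genes stood at 6.65% to 21.3%. In Sertoli-like nuclei the values were 11.4% for *Nrg1* and 7.73% to 9.79% for the 10 genes. These genes were chosen in these data for the largest fold over all other nuclei, so their lower values elsewhere are partly built in. Within the progenitor-like class, the cluster led by genes of the cell cycle (581 nuclei) held 1555 CPM of *Nrg1* and the other (1955 nuclei) 1943 CPM.

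*Nrg1* has 3 groups of annotated starts far apart, which give different first exons and thereby different amino ends of the ligand. The first group lies at 32883862 to 32884029 of chromosome 8, the second 875 kb into the gene at 32009109 to 32009451, and the third 966 kb in at 31917650 to 31918391. The windows of the first 2 groups are shown because the fragments below were divided unequally between them. They run from 250 bases before to 50 after the outermost start (chr8:32883980-32884279 and chr8:32009402-32009701, minus strand, mm10), and capitals again mark motif matches.
Nrg1 start group 1: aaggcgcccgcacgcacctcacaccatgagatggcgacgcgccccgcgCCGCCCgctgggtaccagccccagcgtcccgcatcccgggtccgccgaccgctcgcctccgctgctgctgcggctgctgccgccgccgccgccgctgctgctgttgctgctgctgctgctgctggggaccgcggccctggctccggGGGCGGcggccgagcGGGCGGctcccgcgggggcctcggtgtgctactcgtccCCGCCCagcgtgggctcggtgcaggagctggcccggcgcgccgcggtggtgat
Nrg1 start group 2: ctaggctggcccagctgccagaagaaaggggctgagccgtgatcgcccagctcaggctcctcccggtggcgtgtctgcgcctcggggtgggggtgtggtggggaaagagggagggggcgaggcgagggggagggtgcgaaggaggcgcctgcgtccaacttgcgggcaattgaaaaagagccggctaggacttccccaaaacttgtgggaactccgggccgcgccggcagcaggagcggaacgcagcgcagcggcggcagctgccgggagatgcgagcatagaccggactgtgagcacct
The capitals in the first are 4 GC boxes, a motif that 35.7% of RefSeq promoter windows hold, in a sequence of 78.7% G and C. Read from its first ATG on the strand shown, this window has no stop codon to its end, and all 4 boxes lie in that reading frame. It may thus be coding sequence and not promoter, which was not tested, and the share of promoter windows may not be a like comparison. No match to the 5 motifs lies in the second, at 68.0% G and C.

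*Nrg2* (ENSMUSG00000060275, chr18:36017652-36197380, minus strand) encodes a neuregulin close in form to the product of *Nrg1*. Surface epithelium-like nuclei, the outer cell layer of the testis, held 232 CPM (219 to 246), which was 4.24-fold the contractile-like level of 54.7 CPM (3.75 to 4.81) and 10.7-fold the level of all other nuclei (9.96 to 11.6). Sertoli-like nuclei stood at 43.9 CPM, mesonephric mesenchyme-like at 38.8 CPM and immune-like at 36.0 CPM, a run whose neighbours did not differ beyond counting error. Below the doublet threshold the surface epithelium-like level was 259 CPM and the Sertoli-like 37.0 CPM, and immune-like nuclei held none. The lowest ranked class was germ-like at 8.54 CPM, which was 0.814 CPM below the threshold. Thinned shares were 35.5% of surface epithelium-like, 10.7% of contractile-like and 7.37% of Sertoli-like nuclei, against 1.79% of blood nuclei. In surface epithelium-like nuclei 50.3% held UMIs of both *Nrg2* and *Nrg1*, which after thinning was 20.4% (17.1 to 24.1) beside a product of shares of 19.5%.

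*Nrg3* (ENSMUSG00000041014, chr14:38368952-39473088, minus strand), a neuregulin known mainly from brain, had 1387 UMIs over a gene of 1104 kb. Levels were 46.4 CPM (39.1 to 54.7) in mesonephric mesenchyme-like, 31.7 CPM in immune-like, 30.4 CPM in progenitor-like nuclei and 22.1 CPM in the Leydig-like class, and at most 14.52 CPM in the others. The ratio of the first to the next was 1.47 and its interval included 1 (0.931 to 2.41). With classes from ATAC or RNA alone Leydig-like nuclei were highest, and the mesonephric mesenchyme-like level was 21.6 and 27.7 CPM. Those mesonephric mesenchyme-like classes were larger, at 1138 and 957 nuclei against 394, and had *Myocd* among their leading genes. From RNA alone the Leydig-like level was 30.3 CPM (26.8 to 34.1), an interval that overlaps the mesonephric mesenchyme-like one (24.2 to 31.6). Immune-like nuclei held no *Nrg3* UMI below the doublet threshold. UMIs of *Nrg3* came from few nuclei, since 9.82% of germ-like, 6.63% of Leydig-like, 5.58% of mesonephric mesenchyme-like and 4.81% of progenitor-like nuclei held any. Thinned shares were 1.93%, 3.72%, 3.82% and 3.06% in the same order, and 0 of the blood nuclei, with an exact interval up to 3.24%. Read against its length, the gene was the lowest of the 8.

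*Nrg4* (ENSMUSG00000032311, chr9:55220222-55326844, minus strand), a ligand of ERBB4, was found chiefly in germ-like nuclei. These held 86.7 CPM (82.8 to 90.8) and 94.4% of its UMIs, 45.2-fold the level of all other nuclei together (37.2 to 55.5). Immune-like nuclei came next at 14.4 CPM from 10 UMIs, 6.03-fold lower (3.27 to 12.6), and endothelial-like nuclei held 8.57 CPM. Every other ranked class was at most 2.91 CPM. Below the doublet threshold the germ-like level was 107 CPM, the immune-like level 0 (which allows up to 11.8 CPM) and the endothelial-like level 2.05 CPM. A UMI was found in 57.6% of germ-like nuclei, which have the highest median depth of 15606.5 UMIs, and in 16.1% after thinning, against 1.79% of blood nuclei. The *Nrg4* UMIs were unevenly spread within germ cells at the finer resolution, with 136 CPM in a germ-like cluster of 385 nuclei, 61.2 CPM in 534 nuclei left unnamed at that resolution and 35.4 CPM in a germ-like cluster of 69 nuclei. In the same 3 clusters *Erbb4* stood at 129, 43.6 and 1248 CPM. The last cluster had a median of 33227 UMIs per nucleus, and over all germ-like nuclei *Erbb4* fell from 325 to 22.2 CPM below the doublet threshold. The far end of *Nrg4* overlaps *Fbxo22* on the other strand, which had 1674 UMIs.

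The annotation gives *Nrg4* a pair of starts 43.124 kb apart, at 55326749 and 55283625 of chromosome 9. The windows around both are shown because they differ in openness, and the RefSeq table has only the inner one. They run over chr9:55326700-55326999 and chr9:55283576-55283875 on the minus strand of mm10.
Nrg4 outer start: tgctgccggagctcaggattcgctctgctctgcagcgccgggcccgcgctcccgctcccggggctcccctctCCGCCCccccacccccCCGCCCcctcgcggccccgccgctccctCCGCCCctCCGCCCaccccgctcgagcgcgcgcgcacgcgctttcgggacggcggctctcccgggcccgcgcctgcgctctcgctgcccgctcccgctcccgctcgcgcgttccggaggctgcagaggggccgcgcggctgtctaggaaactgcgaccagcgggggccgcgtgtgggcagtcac
Nrg4 inner start (RefSeq promoter window): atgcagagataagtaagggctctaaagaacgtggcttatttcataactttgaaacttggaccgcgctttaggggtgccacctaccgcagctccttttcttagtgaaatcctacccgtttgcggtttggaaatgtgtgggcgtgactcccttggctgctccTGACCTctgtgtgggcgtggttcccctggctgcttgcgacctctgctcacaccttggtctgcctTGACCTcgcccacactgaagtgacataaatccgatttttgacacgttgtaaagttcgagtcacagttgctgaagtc
Capitals mark 4 GC boxes in the outer window, of 79.7% G and C, and 2 half-sites (TGACCT) in the inner one, of 51.0% G and C. The half-site is found in 16.3% of RefSeq promoter windows.

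Ligand and receptor RNA was then set side by side within classes, in nuclei below the doublet threshold, without comparing the size of 1 gene with that of another. The doublet caller was given the members too, so this choice of nuclei was not independent of their levels. Sertoli-like nuclei, at 4862 CPM of *Erbb4*, held 24.8 CPM of *Nrg1*, 37.0 CPM of *Nrg2*, 1.70 CPM of *Nrg3* and 1.99 CPM of *Nrg4*, and each neuregulin was higher in another class. Germ-like nuclei, which lie in the same cords, were highest for *Nrg4* at 107 CPM and held *Erbb4* at 22.2 CPM. Progenitor-like nuclei, highest for *Nrg1* at 1860 CPM in these classes but not when clusters were remade at that threshold, held *Erbb4* at 13.2 CPM and *Erbb3* at 1.11 CPM, both far below their Sertoli-like levels. Leydig-like nuclei held 231 CPM of *Nrg1*, 12.4 CPM of *Erbb4*, 0.182 CPM of *Erbb3* and 442 CPM of *Egfr*. *Erbb4* was thus highest in a class that was the highest for no neuregulin. For *Erbb3* this cannot be said, since its Sertoli-like and germ-like levels did not differ beyond counting error and germ-like nuclei were highest for *Nrg4*. The product of *Nrg4* is named above as a ligand of ERBB4, so this says nothing of a ligand for ERBB3.

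**Figure D2:**
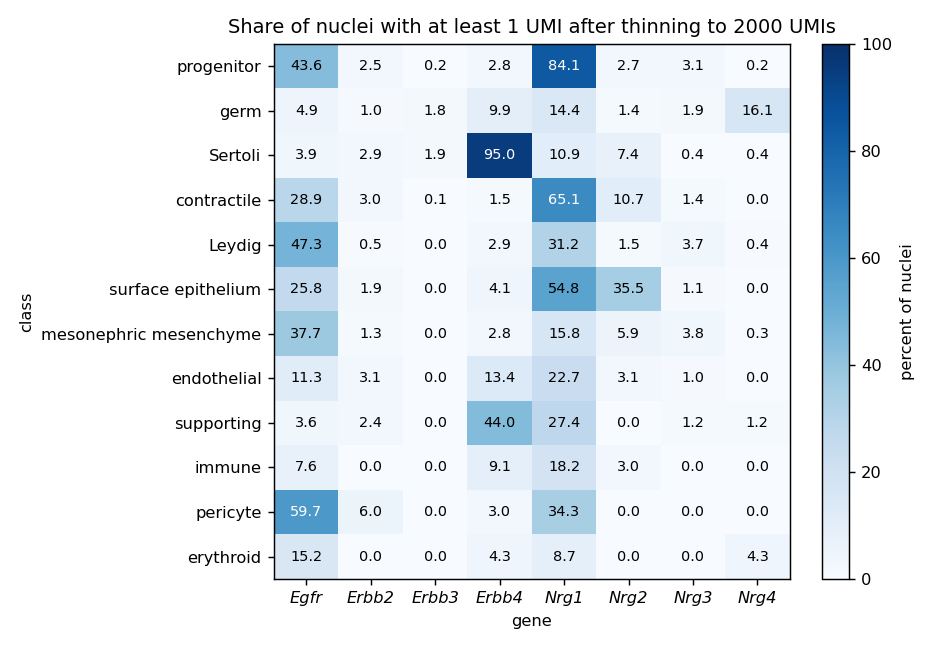
Share of nuclei with at least 1 UMI of each member (columns) in each class (rows), in percent, after each nucleus was thinned to 2000 UMIs. The classes with the highest share of their gene are, for 5 members, *Erbb4* in Sertoli-like (95.05%), *Nrg1* in progenitor-like (84.1%), *Egfr* in pericyte-like (59.7%), *Nrg2* in surface epithelium-like (35.5%) and *Nrg4* in germ-like nuclei (16.1%), while *Erbb2*, *Erbb3* and *Nrg3* stay below 6% in every class.

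The study asked how fetal Leydig cells relate to the interstitial progenitors, and the members were set side by side in these classes, counting those past 2-fold among the 6 with at least 50 UMIs in both together. Higher in progenitor-like nuclei were 2 of 6, where 14.4% of 13363 genes were, and higher in Leydig-like nuclei was 1 of 6, where 11.6% were. *Nrg1* was 4.23-fold higher in progenitor-like nuclei (4.09 to 4.38), at 1816 against 429 CPM, and below the doublet threshold at 1860 against 231 CPM. *Erbb2* was 2.95-fold higher there (2.03 to 4.40), at 11.2 against 3.79 CPM, and below the threshold at 11.01 against 1.82 CPM, but it did not pass 2-fold under minimums of 1000 genes and 1000 fragments at peaks. *Erbb4* was the member higher in Leydig-like nuclei, at 34.9 against 13.9 CPM (progenitor-like over Leydig-like 0.398, 0.336 to 0.472). Below the doublet threshold the *Erbb4* levels were 12.4 CPM in the former and 13.2 CPM in the latter, so that the difference was not seen among those nuclei. *Egfr* (0.923, 0.886 to 0.961), *Nrg2* (1.01, 0.815 to 1.26) and *Nrg3* (1.37, 1.16 to 1.62) stayed within 2-fold, although *Nrg2* stood at 13.4 against 7.48 CPM below the threshold and passed 2-fold when clusters were remade there, and *Erbb3* and *Nrg4* had too few UMIs. UMIs of both *Nrg1* and *Egfr* were found in 66.9% of all progenitor-like nuclei, and in 36.4% after thinning (34.5 to 38.4), beside a product of single shares of 36.6%.

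Concentration in 1 class was measured as the highest over the next class. It was at least 2-fold for 3 of 8 members, *Erbb4*, *Nrg2* and *Nrg4*, where 17.9% of 15199 genes with 100 UMIs were. The median of this ratio was 1.48 over the members, 1.25 over all genes tested and 1.26 over the other pathway genes. With 8 genes chosen for their family, these counts describe the members only.

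Genes of the wider pathway came from a list of 65, of ligands, proteases, signal carriers and restraining factors. Of the 58 that could be compared, 5 were at least 2-fold higher in progenitor-like nuclei and 6 lower by that much, and of 60, 5 had a highest class at least 2-fold over the next. Over all genes tested the same 3 calls were made for 14.4%, 11.6% and 17.9%, so that the list was called no more often than the background. Those higher in progenitor-like nuclei included *Spry1* (3.78-fold), which restrains receptor tyrosine kinase signals, *Rhbdf1* (2.84-fold) and *Rhbdf2* (2.14-fold), which assist the sheddase ADAM17, and *Lrig3* (2.54-fold). Higher in Leydig-like nuclei were *Akt2* (3.97-fold), *Rnf41* (2.43-fold), a ubiquitin ligase for ERBB3, *Pik3cb* (2.09-fold), *Dusp6* (2.05-fold), *Pik3r3* (2.04-fold) and *Map2k1* (2.03-fold). For *Rhbdf2*, and from *Pik3cb* on, the intervals included 2. Over all ranked classes *Pik3cb* and *Pik3r3* were highest in germ-like, *Map2k1* in Sertoli-like and *Dusp6* in immune-like nuclei. All these folds are over all kept nuclei, and values below the doublet threshold are not given for them.

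Ligands of the EGF type, which bind EGFR, were low in CPM, which was not divided by gene length here. *Egf* (685 UMIs) was highest in germ-like nuclei at 14.54 CPM (12.9 to 16.3), beside 12.9 CPM in immune-like nuclei. *Tgfa* (1171 UMIs) stood at 29.1 CPM in supporting-like, 28.9 CPM in Sertoli-like, 23.7 CPM in progenitor-like nuclei and 18.7 CPM in the Leydig-like class. *Hbegf* (118 UMIs) reached 8.57 CPM (5.16 to 13.4) in endothelial-like nuclei and *Ereg* (99 UMIs) 6.24 CPM in surface epithelium-like nuclei. *Btc*, *Epgn* and *Areg* had 38, 24 and 8 UMIs, too few to rank classes.

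Among proteases and their helpers none was 2-fold higher in its highest class than in the next. *Rhbdf2* was highest of the ranked classes in Sertoli-like nuclei (24.6 CPM, 1.90-fold the next, with 29.7 CPM from 13 UMIs in the unranked erythroid-like nuclei), *Adam19*, a protease that can cleave neuregulins, in pericyte-like nuclei (288 CPM, 1.60-fold) and *Rhbdf1* also in pericyte-like nuclei (32.0 CPM, 1.51-fold, 0.866 to 2.55). Of the signal carriers, *Shc4*, an adaptor, was 3.70-fold higher in Sertoli-like nuclei than in the next class (37.2 CPM), *Akt2* 2.89-fold in Leydig-like (137 CPM) and *Stat5a* 8.78-fold in immune-like nuclei (20.1 CPM from 14 UMIs, with 32.0 CPM from as many in erythroid-like nuclei). The restraining factors did not pass 2-fold between the highest and the next class either, and led with *Errfi1*, an inhibitor of ERBB kinases (78.5 CPM in pericyte-like nuclei, 1.89-fold), *Spry4* (23.3 CPM in pericyte-like nuclei, 1.84-fold, 0.931 to 3.52) and *Spred2* (229 CPM in supporting-like nuclei, 1.58-fold).

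Genes with the most similar pattern were found by Pearson's r of log2(CPM + 1) over the 11 ranked classes among 13444 genes of at least 200 UMIs. The classes share a library and differ in depth, so these r values describe the data only. *Erbb4* was followed by *Zfhx2* (0.976), *Gm14226* (0.973) and *Cdh23* (0.968), the last pair of which lead the Sertoli-like cluster. *Nrg4* was followed by *4930467D21Rik* (0.986), *Shcbp1l* (0.983) and *Dnah14* (0.977). *Nrg1* resembled *Gm13652* (0.930), *Trim9* (0.916) and *Lhx9* (0.908), the last a homeobox gene of the early gonad. *Egfr* was closest to *Gm7361* (0.968), *Tgfbr3* (0.947), a co-receptor of the TGF-beta family, and *Pcdhga1* (0.945). *Nrg2* was closest to *S100a6* (0.932), *Slc16a3* (0.892) and *Cd55* (0.888). For the low genes the closest were *Cchcr1* (0.952), *Farp1* (0.923) and *Rhobtb3* (0.918) for *Erbb2*, *Epb41l4b* (0.943), *Ddx18* (0.939) and *Kdm3b* (0.938) for *Erbb3*, and *Gpx4* (0.923), *Vps9d1* (0.897) and *Pcdh10* (0.892) for *Nrg3*.

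Open chromatin at the promoters was compared over classes made from RNA alone, so that the peaks had no part in making them. A promoter peak lay within 1.0 kb of an annotated start, and levels are unique fragments per 1000000 fragments of the class (FPM), in the 6 classes with at least 1000000 fragments. In these RNA classes no contractile-like class was formed, and the mesonephric mesenchyme-like class of 957 nuclei was also led by the contractile genes *Lmod1* and *Myocd*. All 8 members had a promoter peak. For 5 of 8, *Erbb3*, *Erbb4*, *Nrg1*, *Nrg2* and *Nrg4*, the promoter was most open in the class with the highest RNA. By transposase cuts in place of fragments the count was also 5, where this held for 28.6% of 12408 genes, and over all classes of at least 50 nuclei it was 3. No share over all genes was taken for that last setting. In 0 of 8 did the interval of the most open class over the next exclude 1.

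**Figure D3:**
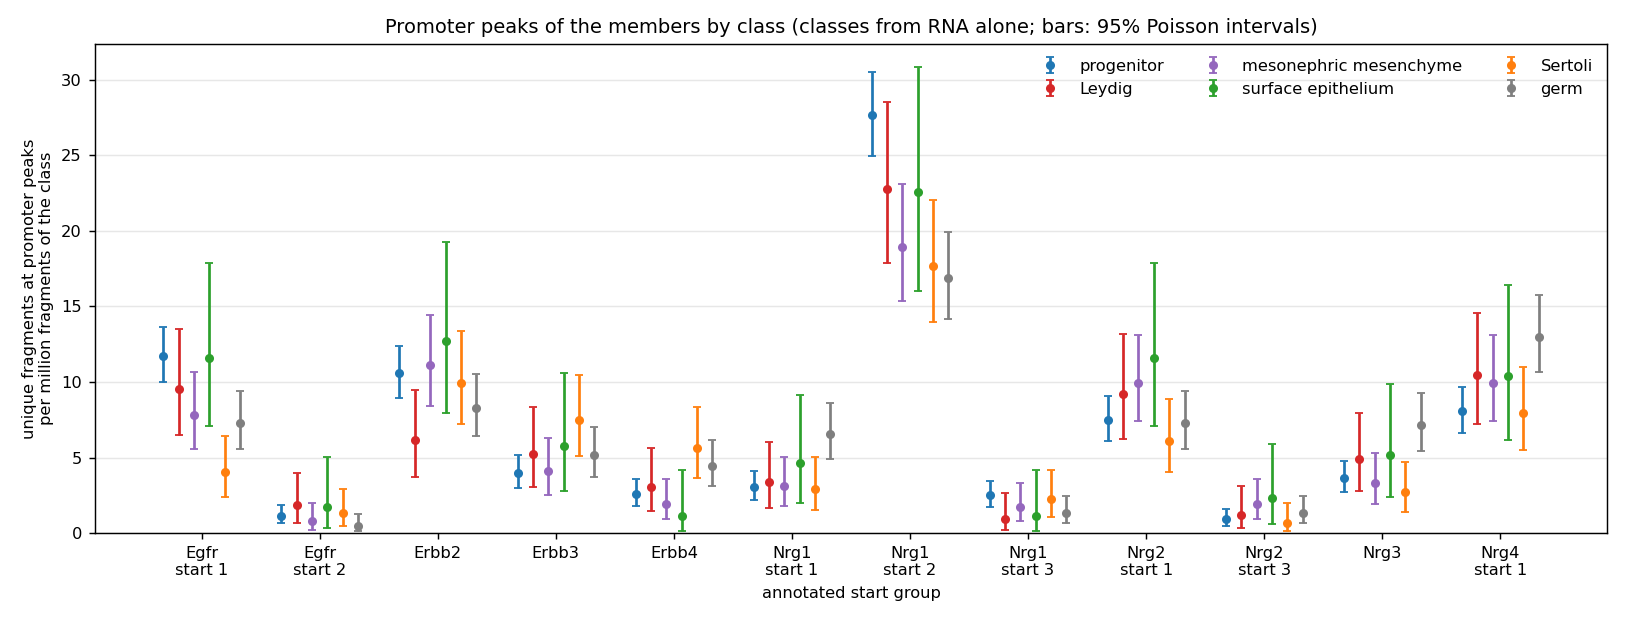
Unique fragments at the promoter peaks of each start group, per 1000000 fragments of the class (FPM), for the 6 classes made from RNA alone, with exact 95% Poisson intervals. Between the classes with the highest and the lowest RNA of a gene, promoters differ less than the RNA does, as for *Erbb4*, where Sertoli-like nuclei stand at 5.66 and progenitor-like nuclei at 2.57 FPM.

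At the *Erbb4* promoter, 25 fragments in Sertoli-like nuclei gave 5.66 FPM, with 4.46 in germ-like and 2.57 in progenitor-like nuclei. The ratio to germ-like nuclei was 1.27 (0.730 to 2.17) and to progenitor-like nuclei 2.20 (1.27 to 3.77), where the RNA ratio to progenitor-like nuclei was 279 (249 to 314). Each pair with an RNA ratio here is the class with the highest and the class with the lowest RNA of that gene, which gives RNA its full range. On these pairs the promoter ratio was below the RNA ratio for the other members too. For *Erbb2* the intervals overlapped, at 0.936 to 2.90 for the promoter and 2.89 to 5.95 for RNA. For *Egfr*, Leydig-like over Sertoli-like nuclei was 2.09 (1.22 to 3.65) at the promoter and 7.40 in RNA. For *Nrg1*, progenitor-like over Sertoli-like nuclei was 1.45 (1.17 to 1.82) at the promoter peaks and 8.32 in RNA. For *Nrg4*, germ-like over mesonephric mesenchyme-like nuclei was 1.31 (0.926 to 1.86) and 95.3, all RNA ratios being those of the same classes. The *Nrg4* promoter peak also covers the start of *Tmem266*, so its fragments cannot be given to 1 gene. *Egfr* was most open in surface epithelium-like nuclei (13.3 FPM, with progenitor-like at 12.9 and Leydig-like at 11.4), *Erbb2* also there (12.7), and *Nrg3* in germ-like nuclei (7.19, with 4.92 in Leydig-like nuclei, the highest class for its RNA).

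The start groups of *Nrg1* were open to different degrees. Over the 6 classes the first held 144 fragments at its peaks, the second 811 and the third 70. The second start, whose window overlaps the non-coding gene *Gm26578*, stood at 27.6 FPM in progenitor-like nuclei (24.95 to 30.5), 22.7 in Leydig-like (17.9 to 28.5) and 16.9 in germ-like nuclei (14.1 to 19.9). The first start went the other way, at 6.57 FPM in germ-like nuclei (4.92 to 8.59) and 3.07 in progenitor-like nuclei (2.22 to 4.14). In the same classes the RNA level of germ-like nuclei was 243 CPM, but their level in the joint classes (223 CPM) was 38.9 CPM below the doublet threshold and 0 after free RNA was subtracted. That subtraction took 37.65% of germ-like UMIs as free RNA, an upper bound if the assumed profile holds. Results under 0 were set to 0, so this 0 is not a measured level. RNA counts do not tell which start was used. For *Nrg4*, the outer start held 356 fragments at its peak and 353 within 500 bp, and the inner start had no peak and 17 fragments within 500 bp. For *Nrg2*, the first start held 292 fragments, the third 45, and the second had no peak.

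The members had 113 peaks within the genes or 10 kb of them, promoter peaks included. Among those of at least 100 transposase cuts, 8 of 51 were at least 2-fold higher in the highest class than in the next, beside 12.4% of 61646 peaks. The *Erbb4* peak printed above held 105 fragments, and stood at 8.15 FPM in Sertoli-like nuclei (5.71 to 11.3), which was 2.41-fold the 3.38 of the Leydig-like class (1.20 to 5.25). Germ-like nuclei stood at 1.49 there. For *Nrg1* a peak near the end of the gene at chr8:31864406-31865310 held 150 fragments, with 7.43 FPM in progenitor-like (6.07 to 9.0) and 3.52 in mesonephric mesenchyme-like nuclei, a ratio of 2.11 (1.27 to 3.70). The central bases of this peak (chr8:31864709-31865008, minus strand, mm10) are shown because among *Nrg1* peaks of at least 100 fragments it had the largest ratio.
Nrg1 intronic peak centre: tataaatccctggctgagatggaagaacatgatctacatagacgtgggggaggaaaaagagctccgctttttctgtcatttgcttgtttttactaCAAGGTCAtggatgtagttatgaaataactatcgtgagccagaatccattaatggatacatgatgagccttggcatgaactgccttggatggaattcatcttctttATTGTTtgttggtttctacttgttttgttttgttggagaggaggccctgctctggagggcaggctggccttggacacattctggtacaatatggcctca
Capitals mark 1 extended half-site CAAGGTCA, which 6.19% of peak centres hold, and 1 SOX core (ATTGTT), which 11.5% hold.

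**Figure D4:**
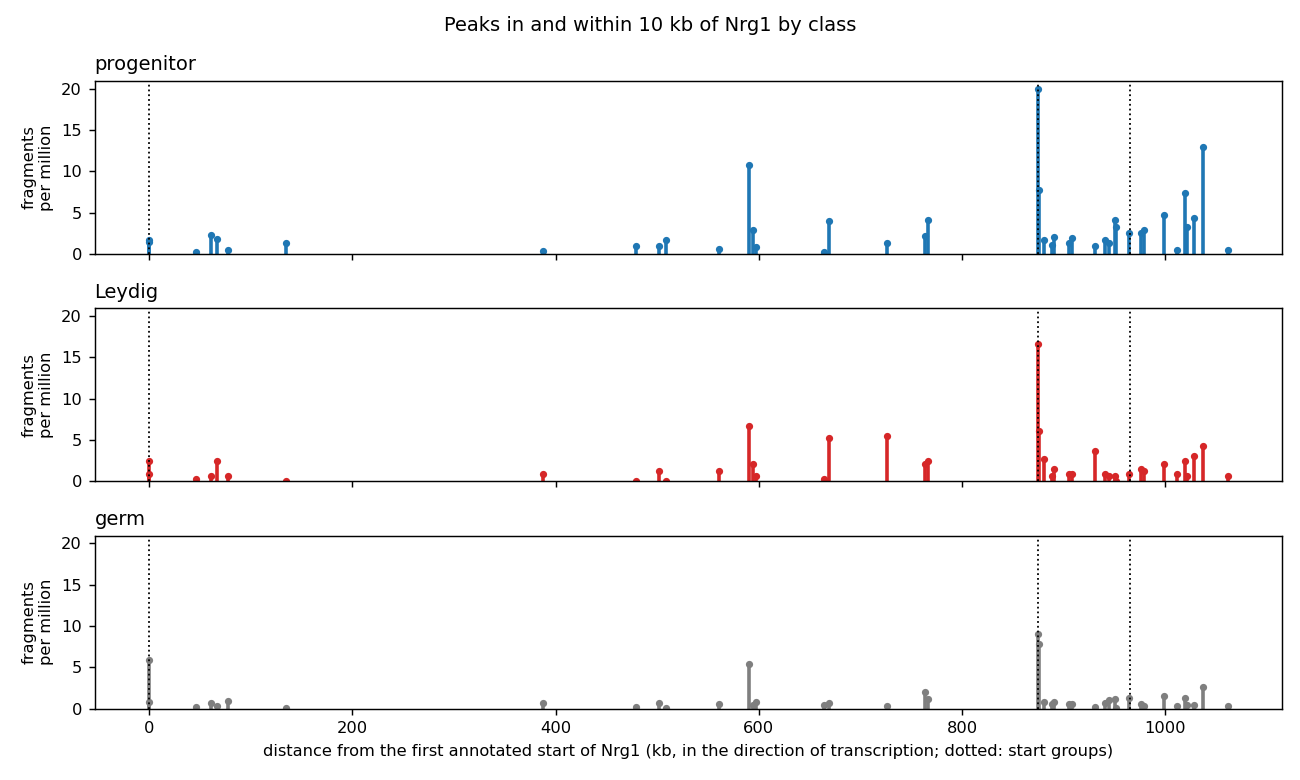
Fragments at each *Nrg1* peak per 1000000 fragments of the class (FPM), against distance in kb from the first annotated start, for progenitor-like, Leydig-like and germ-like nuclei. The larger peak at the second start, about 875 kb in, is the highest in progenitor-like nuclei at 19.9 FPM, and the peak 1019 kb in is 7.43 FPM in progenitor-like and 1.36 in germ-like nuclei.

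Among *Nrg1* peaks of at least 100 fragments that are not at promoters, the next largest ratio was that of chr8:32292848-32293751 (294 fragments), which stood at 10.7 FPM in progenitor-like and 8.40 in mesonephric mesenchyme-like nuclei, a ratio of 1.28 (0.904 to 1.84). In *Egfr*, the intronic peaks chr11:16800230-16801123 and chr11:16817305-16818224 were highest in progenitor-like nuclei (5.36 and 6.36 FPM), 1.37-fold over the next class each, with intervals that included 1. In *Nrg2*, the peak chr18:36068312-36069035 stood at 11.1 FPM in mesonephric mesenchyme-like and 7.43 in progenitor-like nuclei, a ratio of 1.499 (1.07 to 2.09), and chr18:36069057-36069786 at 15.0 in surface epithelium-like nuclei, 1.48-fold over the next (0.936 to 2.26). The peak before *Erbb2* (chr11:98409186-98410087) was 1.29-fold higher in mesonephric mesenchyme-like nuclei than in the next class (0.825 to 1.98). The peaks beside *Erbb2* and *Erbb3* at chr11:98438503-98439384 and chr10:128565720-128566640 lie on the starts of *Mien1* and *Pa2g4*, and their ratios were 1.24 and 1.005.

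Some shallower peaks, chosen after their values were seen, had larger ratios between classes. In *Egfr*, chr11:16905779-16906859 held 63 fragments and stood at 8.91 FPM in Leydig-like and 2.94 in Sertoli-like nuclei, a ratio of 3.03 (1.52 to 6.34), with 0.714 in progenitor-like nuclei. In *Nrg2*, chr18:36117310-36118156 held 59 fragments and stood at 9.25 in surface epithelium-like and 2.15 in mesonephric mesenchyme-like nuclei, a ratio of 4.31 (1.88 to 10.3). In *Erbb3*, chr10:128584216-128584998 held 75 fragments and stood at 6.69 in germ-like and 2.94 in Sertoli-like nuclei, a ratio of 2.27 (1.22 to 4.54). The peak spans the start of the microRNA gene *Mir6917*. In *Nrg1*, chr8:32157750-32158695 held 54 fragments and stood at 5.53 in Leydig-like, 2.26 in Sertoli-like and 1.36 in progenitor-like nuclei, a ratio of the highest to the next of 2.44 (1.07 to 5.92), where the RNA of the same classes was 470, 219 and 1818 CPM. The most open class was thus not the one with the most *Nrg1* RNA there. Also in *Nrg1*, chr8:31932813-31933665 held 80 fragments and was 2.65-fold higher in progenitor-like nuclei than in the next class (1.26 to 6.43).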

How the data were processed

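Whole fetal testes were profiled by multiome, with 1 library for RNA and 1 for ATAC. The authors ran Cell Ranger ARC 2.0.1 on mm10, and the deposited values are raw counts (UMIs per gene, transposase cuts per peak, and read pairs per unique fragment), unfiltered for quality, doublets and ambient RNA. The genome used here for sequences and starts is of the same build (GRCm38).

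Nuclei were kept at thresholds of the study (mitochondrial and ribosomal UMIs under 10%, haemoglobin under 0.5%, over 500 genes, over 250 and under 25000 fragments at peaks, over 20% of fragments at peaks), except that its limit on fragments in blacklisted regions was not applied. Scrublet in scanpy 1.11.5 stood in for the study's doublet caller, and the top 6.13% by score (0.8% per 1000 nuclei) were removed. Some doublets remain after such a step, and ambient RNA was not removed. Seurat 5.3.0 in R 4.3.3 clustered RNA and ATAC jointly at resolution 0.3, with members and pathway genes kept out of the variable genes. Peaks in or within 10 kb of a member were also kept out of the ATAC part, while peaks of the other pathway genes stayed in it. Promoters were compared over classes from RNA alone. Clusters were named by their markers.

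Class sums of UMIs were divided by the class total, with exact Poisson, Clopper-Pearson and conditional binomial intervals. Depth was a median of 7949 UMIs per nucleus, and the 74 nuclei under 2000 UMIs were left out of thinned shares. Nuclei are not replicates and no p-value was taken. The scripts were tested on simulated data. Named were all members, the 7 EGF-type ligands, the 3 genes of each other list with the largest ratio, the 3 most alike genes, and the promoter peaks and 2 further peaks of each member. Members, markers, lists and rules were chosen with earlier results of these data known. RefSeq promoter windows (mm10) were found for 5 members, and *Nrg2* was not looked up. A gene of the pathway lists is not reported here.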

Additional observations from a re-analysis of the deposited data

How the results depend on the processing

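The class with the highest level was kept by 6 to 8 of 8 members under each alternative (doublets kept or cut at the automatic threshold, stricter minimums, resolution 0.6, classes from 1 assay, free RNA subtracted, thinning, mean CPM). *Erbb2* moved to pericyte-like nuclei at the automatic threshold (with clusters remade or unchanged) and when thinned, *Egfr* to Leydig-like nuclei under stricter minimums, and *Egfr* and *Nrg3* to Leydig-like nuclei with classes from ATAC or RNA alone. For *Egfr* these were settings without a ranked pericyte-like class. None was formed under stricter minimums or from ATAC alone, and the one from RNA alone had 47 nuclei, too few to rank. *Erbb3* moved to germ-like nuclei with free RNA subtracted. *Nrg3* in mesonephric mesenchyme-like nuclei was 46.4 CPM in the main classes and 21.6 CPM with classes from ATAC alone. The latter class held 1138 nuclei against 394, with *Myocd* among its leading genes, so these are unlike groups of nuclei. Ratios to the class that was next in the main classes ran from 0.486 to 1.37 for *Erbb2*, 2.69 to 5.30 for *Erbb4*, 1.40 to 10.8 for *Nrg3* and 4.42 to 22.05 for *Nrg4*. *Erbb4*, *Nrg2* and *Nrg4* were past 2-fold in all of these that could be counted. *Nrg1* lost its first place to contractile-like nuclei at the automatic threshold with clusters remade, where its ratio was 0.941, and at resolution 0.6 (0.994), but was itself past 2-fold, making 4 members, with doublets kept, under stricter minimums (2.77) and with classes from RNA alone. With doublets kept and with classes from RNA alone no contractile-like class was formed, so its ratio there was to a different class. Members at least 2-fold higher in Leydig-like nuclei numbered 0, not 1, at the automatic threshold with clusters remade, with classes from RNA alone, free RNA subtracted, thinned, by mean of each nucleus's own CPM, and with nuclei over the automatic threshold left out and classes unchanged, and with classes from ATAC alone the 1 was *Nrg4*, not *Erbb4*. Members higher in progenitor-like nuclei numbered 1 under stricter minimums, where *Erbb2* was lost, and 3 at the automatic threshold with clusters remade, where *Nrg2* was added. Pathway genes past 2-fold between classes numbered 8 with classes from ATAC alone, 8 from RNA alone and 9 by mean CPM, in place of 5. Promoters most open in the class with the highest RNA numbered 3, not 5, over all classes of at least 50 nuclei, for which no share over all genes was taken. That alternative, fragments at peaks as denominator, and leaving out nuclei over the automatic threshold were chosen after seeing the data. Where a class was missing or made of other nuclei, the values compare unlike classes. The cause of the other moves was not tested. Free RNA was taken per class as the lowest share shown by markers of other classes, 5.23% to 37.7% (37.65% for germ-like nuclei). This share is an upper bound if free RNA has the summed profile of all kept nuclei, and results under 0 were set to 0. No paired analysis was possible because there is 1 library per assay. Depth limits the levels of *Erbb2*, *Erbb3* and *Nrg3* and all promoter ratios.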
